A study of Rattus norvegicus with 6 samples.

Results

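The 38 genes described here encode collagens and the proteins that fold, modify, bind or crosslink them. They were chosen by symbol, as every gene named Col, a number, the letter a and a number, together with the P4ha and Plod hydroxylases, Lox and Loxl1 to Loxl4, Serpinh1 and Sparc. Of 14506 genes compared, 38 met this rule, 25 collagen chains and 13 other genes. The RefSeq gene table of rat assembly GRCr8 holds 57 symbols that fit the rule. The other 19, among them Col4a2, Col6a1, Col6a2, Col6a3, Col15a1 and Col18a1, were not analysed here because no probe set with 1 gene symbol was named for them. Every member had 1 probe set except Col6a4, for which the brightest of 3 was used.

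The RNA came from testis cells in primary culture, which the labels call Sertoli cells, of rats aged 9 days and 21 days, with 3 Affymetrix arrays at each age. The labels give neither strain nor genotype, and they place the younger cells in the proliferative phase and the older cells after it. Both ages were kept in DMEM/F12 containing 10% fetal bovine serum, with a change of medium after 24 hours to purify the cells further. Values are RMA signals on the log2 scale, on which a difference of 1 is a factor of 2. They are read here as expression of total RNA, which the title and sample labels describe, although the type recorded for the series is genome binding by array. Whether the replicates are separate animals or cultures is not stated, so the p-values reflect the spread among these arrays alone, and that spread may be technical. Precision is limited by the number of arrays: the median SE of an age difference was 0.14 over the 38 genes and 0.11 over all genes.

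Collagens are triple helices of alpha chains in which glycine recurs at regular steps along each chain. In the endoplasmic reticulum, prolyl hydroxylases (P4ha chains) stabilise the helix, lysyl hydroxylases (Plod) prepare sites for glycosylation and crosslinking, and the chaperone Hsp47 (Serpinh1) holds the folded procollagen. Outside the cell, lysyl oxidases (Lox, Loxl) crosslink fibrils and Sparc binds collagen. In the testis, Sertoli cells and peritubular myoid cells together lay down the basement membrane of the seminiferous tubule, which contains type IV collagen, while fibrillar collagens lie outside it.

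The cultures were checked against markers of the cells they could hold. Of 19 measured Sertoli cell markers, Wt1, Gata4, Clu and Tjp1 lay above the upper quartiles of all arrays (6.04 to 6.12) in every array, and 6, Amh, Cldn11, Dhh, Fshr, Gata1 and Nr0b1, lay below the medians (3.78 to 3.87) in every array. Of 15 measured smooth muscle markers, which include those of peritubular cells, 10 lay above the upper quartiles in every array. The contractile actin gene Acta2 ranged from 11.50 to 12.88. Both arrays numbered 3 stood apart. In them 15 of 15 smooth muscle markers exceeded the mean of the other arrays of their age, by a median of 1.00 at 9 days and 0.91 at 21 days. The mean signal of this list was 7.86, 7.94 and 9.00 at 9 days and 7.83, 7.36 and 8.81 at 21 days, here and below in the order of replicates 1, 2 and 3. In bulk RNA, a change in the number of cells of a type and a change in RNA per cell cannot be told apart. Limits of detection are unknown for these values, and signals of different probe sets are not amounts of transcript.

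No member passed an adjusted p under 0.05 between the ages, and neither did any of the 14506 genes (0.0% called, limma with Benjamini-Hochberg adjustment over all genes). The lowest adjusted p among the members was 1, and 0.39 with the replicate number as a block. At an unadjusted p under 0.05 there were 2 members, Col11a1 and Col7a1, against 2.97% of all genes. With the block there were 3, Col11a1, Col12a1 and P4ha3, against 7.73%. No member differed by a factor of at least 2 (0.427% of all genes), and 2 differed by at least 1.5, Col11a1 and Col12a1, both lower at 21 days (1.52% of all genes in either direction). The mean was lower at 21 days for 21 members, against 53.3% of all genes, and higher for 17, against 46.5%. The median difference was -0.0093 over the members and -0.0093 over all genes.

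**Figure D1:**
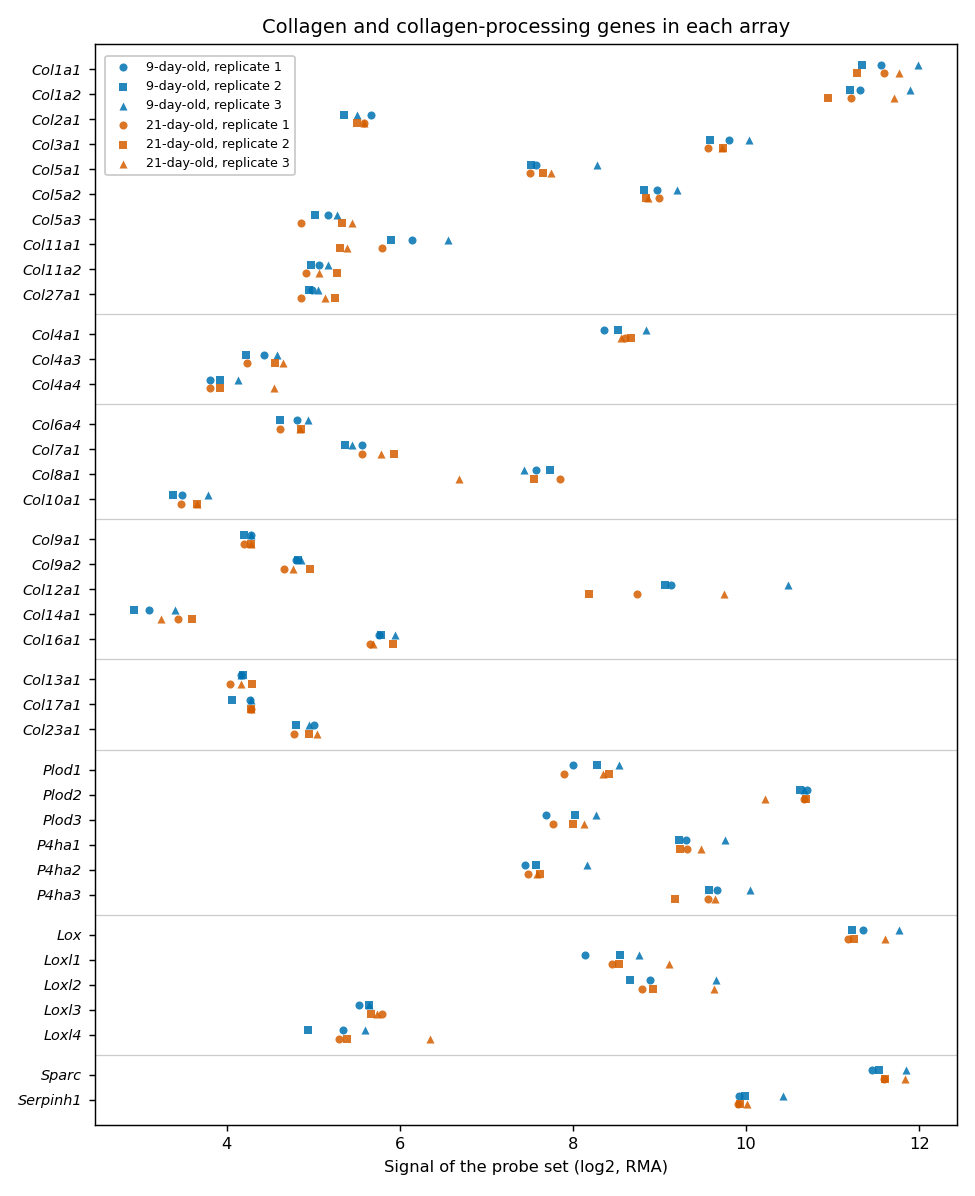
Signal (log2, RMA) of each of the 38 genes in each of the 6 arrays, ordered by role, with blue for 9-day-old and orange for 21-day-old cultures and a marker shape for each replicate number. For most genes the colours overlap, Col11a1 is lower in all orange points, and the triangles of replicate 3 lie to the right for Col12a1 and Loxl2.

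Upstream sequence is shown for the members with the largest differences that the RefSeq promoter table holds and for the divergent type IV pair. The table matched 31 of the 38 members, without Col1a1, Col2a1, Col3a1, Col12a1, Col14a1, Lox and Loxl2. Each run gives the 150 bases before the gene's start, 5′ to 3′ on the gene's strand, from RefSeq on GRCr8, and the labels name no build for the array. Capitals mark GGGCGG (the GC box) or CCAAT on either strand, so that CCAAT on the other strand reads ATTGG. Col11a1 and P4ha3 had lower means at 21 days and Col7a1 and Loxl4 higher ones. The Col11a1 window is chr2:204508986-204509135 (plus strand), that of P4ha3 chr1:164040714-164040863 (plus), that of Col7a1 chr8:118483214-118483363 (plus) and that of Loxl4 chr1:251365578-251365727 (minus).
Col11a1: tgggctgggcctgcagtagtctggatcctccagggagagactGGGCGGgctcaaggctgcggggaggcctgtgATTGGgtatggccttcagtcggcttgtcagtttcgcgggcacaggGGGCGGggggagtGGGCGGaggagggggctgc
P4ha3: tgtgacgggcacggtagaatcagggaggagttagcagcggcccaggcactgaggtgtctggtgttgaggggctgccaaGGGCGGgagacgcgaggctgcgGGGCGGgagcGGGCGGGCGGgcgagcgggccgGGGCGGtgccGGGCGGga
Col7a1: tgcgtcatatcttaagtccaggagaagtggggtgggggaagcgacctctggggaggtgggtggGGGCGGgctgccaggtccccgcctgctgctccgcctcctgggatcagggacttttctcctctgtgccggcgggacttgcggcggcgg
Loxl4: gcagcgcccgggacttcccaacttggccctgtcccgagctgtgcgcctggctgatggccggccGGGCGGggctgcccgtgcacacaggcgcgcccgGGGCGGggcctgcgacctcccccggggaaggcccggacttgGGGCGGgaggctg
The lines show GC boxes in all 4, 3 in Col11a1, 6 in P4ha3 (of which 2 overlap), 1 in Col7a1 and 3 in Loxl4. Members with a lower and with a higher mean thus both held them.

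Col4a3 and Col4a4 lie head to head, with starts 413 bases apart on chromosome 9. Their windows are chr9:91323840-91323989 (plus strand) and chr9:91323578-91323727 (minus strand).
Col4a3: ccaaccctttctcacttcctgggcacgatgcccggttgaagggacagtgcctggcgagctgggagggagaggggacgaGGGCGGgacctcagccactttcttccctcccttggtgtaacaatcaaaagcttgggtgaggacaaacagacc
Col4a4: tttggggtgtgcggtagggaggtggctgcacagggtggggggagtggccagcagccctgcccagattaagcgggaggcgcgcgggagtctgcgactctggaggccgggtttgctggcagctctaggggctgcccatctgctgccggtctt
The Col4a3 window held 1 GC box and the Col4a4 window none. Over the 250 bases before the start, searched on both strands with overlapping matches counted, GGGCGG was in 18 of 31 member promoters (58.1%), in 30.5% of the 33469 promoters of the table and in 47.3% of the 11968 promoters of genes compared here. CCAAT was in 8 of 31 (25.8%), against 11385 of the 33469 and 35.6% of the 11968. The TATA box, TATAAA, was in 4 of 31 (12.9%), against 12.9% and 11.3%. At least 6 GC boxes, as before P4ha3, were in 0.825% of all promoters. A match is a description of these letters, not evidence of a bound site.

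Type I collagen, the main fibrillar collagen of connective tissue, gave signals above the 95th percentiles of all arrays (8.79 to 8.88) in every array. Col1a1, its more abundant chain, was at 11.56, 11.34 and 11.99 at 9 days and 11.59, 11.28 and 11.76 at 21 days. Values of the ages overlapped, and replicate 3 was the highest of each age. Its difference, always given as 21 days minus 9 days, was -0.08 ± 0.20 (SE, n = 3 each), with a 95% confidence interval from -0.59 to 0.42. Without 9-day-old replicate 3 the difference was 0.097. Col1a2, the partner chain, was at 11.31, 11.20 and 11.89 at 9 days and 11.21, 10.95 and 11.70 at 21 days. Replicates kept the same order at both ages, with replicate 3 highest and replicate 2 lowest. The difference was -0.18 ± 0.26, and within the 3 pairs of equal replicate number the 21-day-old array was lower each time, by -0.10, -0.25 and -0.19. Lower values in all 3 pairs were also seen for 14.4% of all genes.

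Col3a1, the homotrimeric collagen that joins type I in fibrils, was at 9.81, 9.58 and 10.04 at 9 days and 9.56, 9.73 and 9.72 at 21 days, a difference of -0.14 ± 0.13. The type V chains, which seed type I fibrils, gave differences of -0.16 ± 0.22 for Col5a1, -0.095 ± 0.11 for Col5a2 and 0.054 ± 0.17 for Col5a3. Col5a1 was at 8.27 in 9-day-old replicate 3 and between 7.51 and 7.74 in the other 5 arrays. These genes thus overlapped between the ages, and the highest array of Col3a1, Col5a1 and Col5a2 was 9-day-old replicate 3.

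Col11a1, a chain of the type XI collagen best known from cartilage, was the member with the largest difference. Its signal was 6.14, 5.90 and 6.56 at 9 days and 5.80, 5.32 and 5.39 at 21 days. All values at 21 days lay below all at 9 days, which was the case for 2.98% of all genes. The mean at 21 days was 61.7% of the younger level, a log2 difference of -0.70 ± 0.21 (SE, n = 3 each) with a 95% confidence interval from -1.21 to -0.18 and an adjusted p of 1 in limma. The pairs differed by -0.34, -0.58 and -1.17, and leaving out single arrays gave -0.85 to -0.52. The other fibrillar members, Col2a1, Col11a2 and Col27a1, differed by 0.012 to 0.085, with signals between 4.86 and 5.67. Of the 10 fibrillar members measured, 6 had a lower mean at 21 days and 4 a higher one, and the median difference was -0.089.

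Of the basement membrane collagens, 3 chains of type IV were measured, and the mean was higher at 21 days for each of the 3, with a median difference of 0.067. Col4a1, part of the widespread form of type IV collagen, was at 8.36, 8.52 and 8.84 at 9 days and 8.61, 8.67 and 8.56 at 21 days. Values at 21 days lay within the range of those at 9 days, and the difference was 0.039 ± 0.13 with a 95% confidence interval from -0.28 to 0.36. It was -0.068 without 9-day-old replicate 1. Col4a4, which assembles with Col4a3, was at 3.81, 3.92 and 4.14 at 9 days and 3.81, 3.92 and 4.55 at 21 days. Replicates 1 and 2 were nearly equal between the ages, so the difference of 0.14 ± 0.21 came from replicate 3, and it was -0.089 without 21-day-old replicate 3. Col4a3 was at 4.43, 4.23 and 4.58 at 9 days and 4.24, 4.56 and 4.65 at 21 days, a difference of 0.067 ± 0.14. Both chains were highest in the array numbered 3 at each age.

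Among collagens of networks and anchoring structures, Col7a1, which forms the anchoring fibrils under epithelia, had the largest positive difference among collagen chains. It was at 5.56, 5.37 and 5.44 at 9 days and 5.57, 5.93 and 5.78 at 21 days. No value at 21 days lay among those at 9 days, as for 2.74% of all genes in this direction, but replicates 1 differed by only 0.0081. The mean difference was 0.30 ± 0.11 with a 95% confidence interval from 0.026 to 0.58. Col8a1, a short-chain collagen of vessel walls and other mesenchyme, was at 7.58, 7.73 and 7.44 at 9 days and 7.85, 7.55 and 6.68 at 21 days. Only 21-day-old replicate 3 lay below the younger values, and the difference of -0.22 ± 0.30 became 0.12 without it. Col10a1, known from hypertrophic cartilage, and Col6a4 differed by 0.049 ± 0.12 and -0.013 ± 0.12.

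Col12a1, which coats type I fibrils and belongs to the fibril-associated collagens, varied more among the arrays than any other member, over a range of 2.30. It was at 9.14, 9.06 and 10.48 at 9 days and 8.74, 8.18 and 9.75 at 21 days. Within each age replicate 3 stood well above the others, and within each number the 21-day-old array was lower, by -0.39, -0.88 and -0.73. The ages overlapped, and the difference was -0.67 ± 0.54 (SE, n = 3 each), or 62.9% of the younger level. With the replicate number as a block the SE was 0.11 and the adjusted p in limma 0.39. Without 9-day-old replicate 3 the difference was -0.21, and without both arrays numbered 3 it was -0.64.

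Col14a1, another fibril-associated collagen, was at 3.10, 2.93 and 3.41 at 9 days and 3.44, 3.60 and 3.24 at 21 days, a difference of 0.28 ± 0.15. It was higher at 21 days in replicates 1 and 2 and lower in replicate 3. It was the only member below the medians of all arrays in each of the 6. Col9a1, Col9a2 and Col16a1 differed by -0.00028, -0.031 and -0.074, with the ages overlapping. The transmembrane collagens Col13a1, Col17a1 and Col23a1 differed by -0.0054, 0.081 and 0.0026. Exactly the same value appeared in at least 2 arrays for 10 members and for 37.8% of all genes. Col17a1 had 4.29 in 4 arrays and Col9a1 4.28 in 4 arrays, so the small differences of these genes rest on few distinct values.

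The hydroxylases all had lower means at 21 days, 6 of 6, with a median difference of -0.11 and none called. A lower mean was found for 53.3% of all genes. It was found for 66.0% of genes above the upper quartiles in every array, as all 6 hydroxylases were. P4ha3, a catalytic chain of prolyl hydroxylase, was at 9.66, 9.58 and 10.04 at 9 days and 9.56, 9.18 and 9.64 at 21 days. It was lower in each of the 3 pairs, by -0.10, -0.40 and -0.40, although the ages overlapped. The difference was -0.30 ± 0.18 with a 95% confidence interval from -0.73 to 0.13, without the block. With the replicate number as a block the SE was 0.092 and the adjusted p in limma 0.57. P4ha1, the most widely expressed catalytic chain, was at 9.30, 9.23 and 9.76 at 9 days and 9.32, 9.23 and 9.48 at 21 days. Replicates 1 and 2 differed by 0.014 and 0.0044, so that only the arrays numbered 3 carried the difference of -0.087 ± 0.16. P4ha2 was at 7.45, 7.57 and 8.16 at 9 days and 7.48, 7.62 and 7.59 at 21 days. As for P4ha1, the first 2 pairs were slightly higher at 21 days and the pair numbered 3 was lower, by -0.57, for a mean difference of -0.17 ± 0.19.

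The lysyl hydroxylase genes showed the same small sizes. Plod2, which acts on the telopeptide lysines used for crosslinks, was at 10.71, 10.62 and 10.67 at 9 days and 10.67, 10.69 and 10.22 at 21 days. Its signal stayed between 10.62 and 10.71 in 5 of the 6 arrays, and 21-day-old replicate 3 was lower. The difference was -0.14 ± 0.14, and 0.014 without that array. Plod1, a helical lysyl hydroxylase, was at 8.002, 8.28 and 8.53 at 9 days and 7.90, 8.42 and 8.34 at 21 days, a difference of -0.049 ± 0.19. Plod3, which also carries glycosyltransferase activity, differed by -0.025 ± 0.17. Without both arrays numbered 3 the differences of P4ha1, P4ha2, Plod1 and Plod2 were 0.0093, 0.039, 0.020 and 0.015, so the count of 6 lower hydroxylases rested on that pair.

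Among the crosslinking oxidases, 4 of 5 had higher means at 21 days, against 46.5% of all genes, with a median difference of 0.13 and none called. Loxl4 had the largest positive difference of all members. It was at 5.35, 4.94 and 5.60 at 9 days and 5.30, 5.39 and 6.35 at 21 days, with 21-day-old replicate 3 far above the other 5. The difference was 0.38 ± 0.33 with a 95% confidence interval from -0.42 to 1.18, and 0.047 without that array. Loxl1, which crosslinks elastin as well, was at 8.14, 8.55 and 8.76 at 9 days and 8.45, 8.54 and 9.11 at 21 days. Replicate 3 was again the highest of each age, and the difference was 0.21 ± 0.23, or 0.011 without 21-day-old replicate 3.

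Loxl3 was at 5.53, 5.65 and 5.65 at 9 days and 5.80, 5.67 and 5.74 at 21 days. Older and younger values did not overlap, by the narrow gap from 5.65 to 5.67, and the difference was 0.13 ± 0.07. Loxl2, which also acts on type IV collagen, was at 8.89, 8.66 and 9.65 at 9 days and 8.80, 8.92 and 9.63 at 21 days. Both arrays numbered 3 were nearly equal and stood above the other 4, and the difference was 0.050 ± 0.33. Lox itself was at 11.36, 11.22 and 11.77 at 9 days and 11.18, 11.24 and 11.61 at 21 days, with replicate 3 highest at both ages. Its difference was -0.11 ± 0.18, and 0.054 without 9-day-old replicate 3.

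Serpinh1, the chaperone specific to procollagen, was at 9.92, 9.99 and 10.42 at 9 days and 9.91, 9.93 and 10.02 at 21 days. Only 9-day-old replicate 3 stood above the other arrays, which lay close together. The difference was -0.16 ± 0.14, with a 95% confidence interval from -0.51 to 0.20, and -0.00088 without that array. Sparc was at 11.45, 11.54 and 11.85 at 9 days and 11.59, 11.60 and 11.84 at 21 days, a difference of 0.064 ± 0.13. As with Loxl2, both arrays numbered 3 were nearly equal and above the other arrays.

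**Figure D2:**
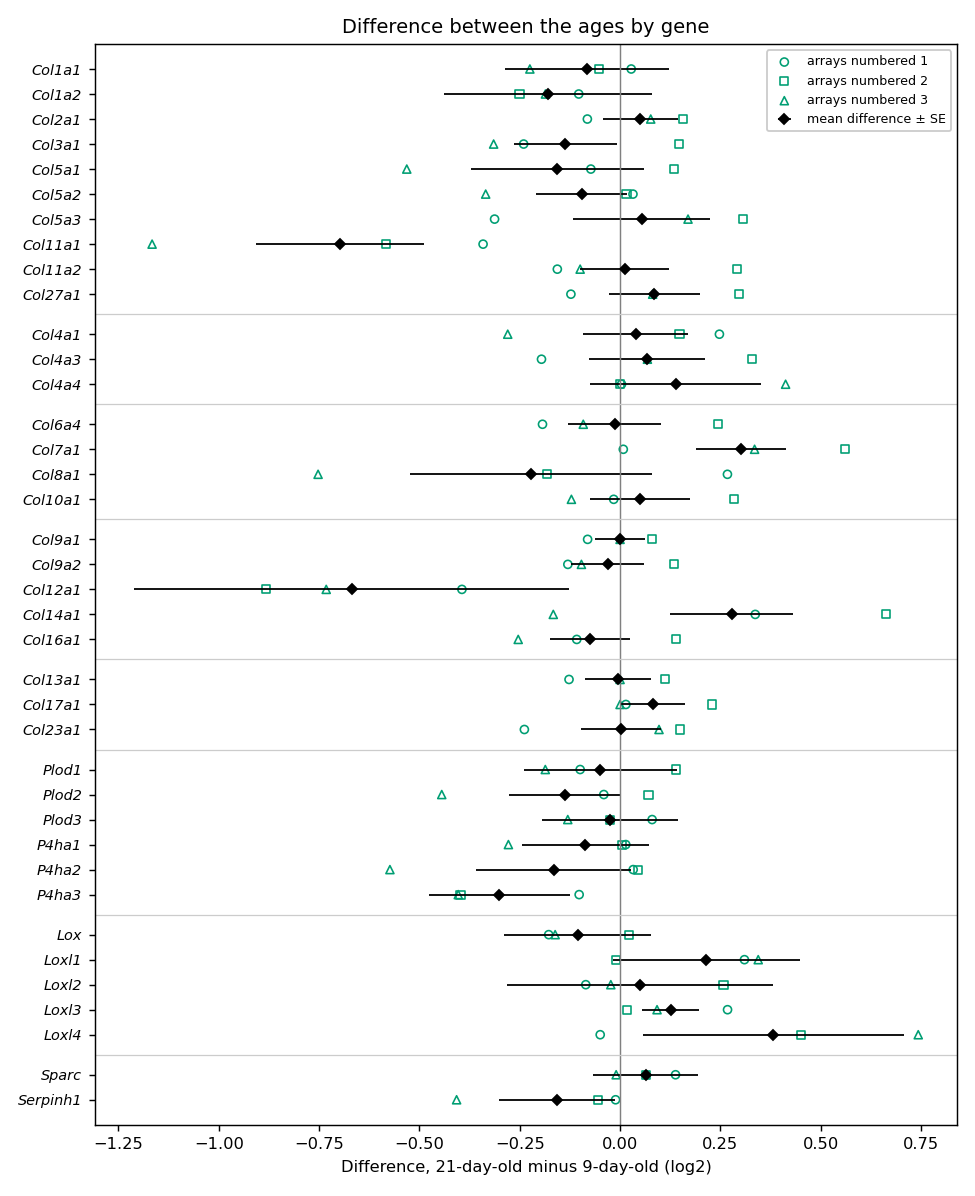
Log2 difference of each gene (21-day-old minus 9-day-old), as the mean with its SE from limma (black diamonds) and as the difference within each pair of arrays with the same number (green symbols). Most bars cross 0, Col11a1 lies at -0.70 and Loxl4 at 0.38, and the triangles of the pair numbered 3 are left of 0 for all 6 hydroxylases.

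The 3 pairs of arrays did not share a direction over the members. In the pair numbered 1, 24 of 38 members were lower at 21 days, against 45.0% of all genes, with a median of -0.077. In the pair numbered 2, 28 of 38 were higher, against 44.5%, with a median of 0.12. In the pair numbered 3, 25 of 38 were lower, against 51.2%, with a median of -0.13. Lower values in all 3 pairs were found for 5 members, Col11a1, Col12a1, Col1a2, P4ha3 and Serpinh1, against the 14.4% of all genes given above. Col7a1 and Loxl3 were higher in all 3, against 10.7% of all genes.

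Members of high signal and members of low signal also differed in direction, as did all genes split in the same way. Every array lay above the upper quartiles in 19 members and in 3979 of all genes. The 3979 genes were not matched for signal, with a mean of 7.87 at 9 days against 9.47 for the 19 members. A lower mean at 21 days was found in 15 of 19 members, against 66.0% of the 3979 genes, with medians of -0.11 and -0.045. In the pair numbered 3 it was 18 of 19, all but Loxl1, against 62.9%. Among the other 19 members, 6 were lower and 13 higher, with a median of 0.051. Among the other 10527 genes, 5105 were lower and 5399 higher, with a median of 0.0035. The direction among members of high signal rested on the arrays numbered 3, since the medians in the pairs were -0.011, 0.016 and -0.28. Smooth muscle markers also had lower means at 21 days, 13 of 15, with a median of -0.19 and none called, and their medians in the pairs were 0.0215, -0.42 and -0.17. Their part in the direction of the members was not tested.

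The clearest pattern over the members was their level in the arrays numbered 3. At 9 days, 34 of 38 members were above the mean of the other arrays, against 50.9% of all genes, by a median of 0.35. At 21 days it was 27 of 38, against 48.5%, by a median of 0.095. In 25 members it was above at both ages, against 33.7%. In 16 members the array numbered 3 was the highest at both ages, against 18.6% of all genes. The largest excess was that of Col12a1, by 1.38 at 9 days and 1.29 at 21 days. Loxl2 stood 0.88 and 0.77 higher, Loxl4 0.46 and 1.00 and Col1a2 0.63 and 0.62. Loxl1 stood 0.42 and 0.61 higher and was the fifth member with an excess of at least 0.5 in the mean over the ages, seen in 5.29% of all genes.

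Some members did not follow this pattern. Col8a1 was lower in the arrays numbered 3, by -0.22 and -1.01, and Plod2 differed by 0.0037 and -0.46. Col11a1 was higher by 0.54 at 9 days and differed by -0.16 at 21 days. The hydroxylases exceeded the other arrays by a median of 0.41 at 9 days and 0.19 at 21 days, and the oxidases by 0.46 and 0.61. Of the smooth muscle markers given above, 14 of 15 were highest in the array numbered 3 at both ages. Their median excess was 1.00 at 9 days and 0.91 at 21 days, while that of all members was 0.35 and 0.095. The fibroblast markers went the other way, with 6 of 15 above at 9 days and 2 of 15 at 21 days, and their mean signal was 6.60, 6.65 and 6.43 at 9 days and 6.69, 7.08 and 6.25 at 21 days. Sertoli cell markers were above in 13 of 19 at 9 days and 16 of 19 at 21 days, by medians of 0.090 and 0.37. For germ cell markers, of low signal, it was 9 of 14 and 13 of 14. Macrophage markers were above in 11 of 14 and 6 of 14. Endothelial markers were above in 9 of 11 and 4 of 11, and Leydig cell markers in 4 of 8 and 3 of 8. What part any cell type had in the levels of the collagen genes was not tested.

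**Figure D3:**
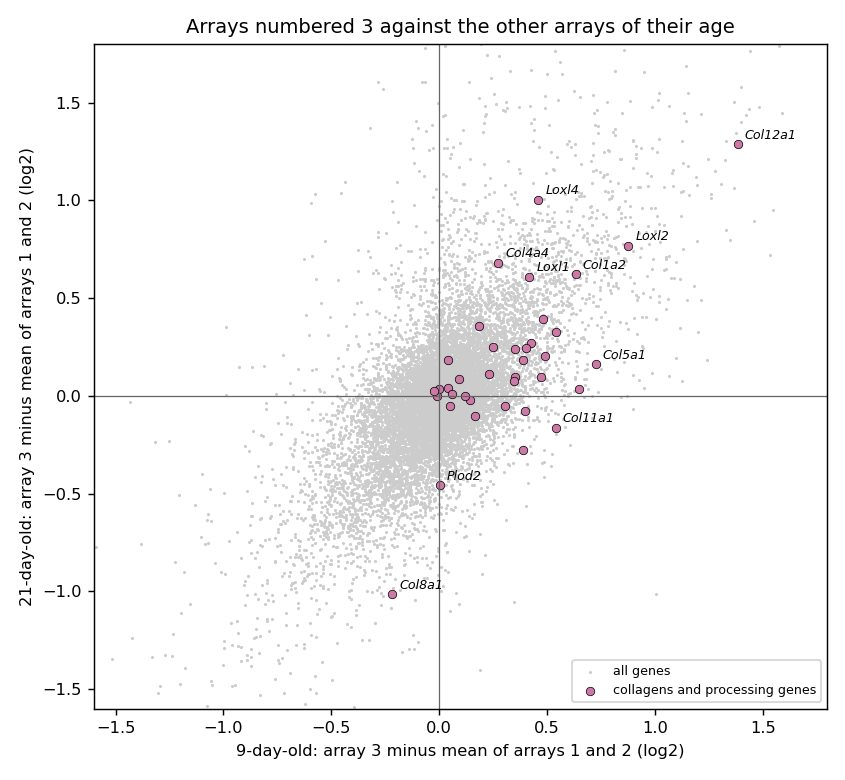
Signal in the array numbered 3 minus the mean of arrays 1 and 2 of the same age (log2), at 9 days (horizontal) and 21 days (vertical), for all genes (grey) and the 38 collagen and processing genes (pink). Most pink points lie right of 0, Col12a1 at 1.38 and 1.29, while Col8a1 lies at -0.22 and -1.01, and 119 grey points fall outside the axes.

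**Figure D4:**
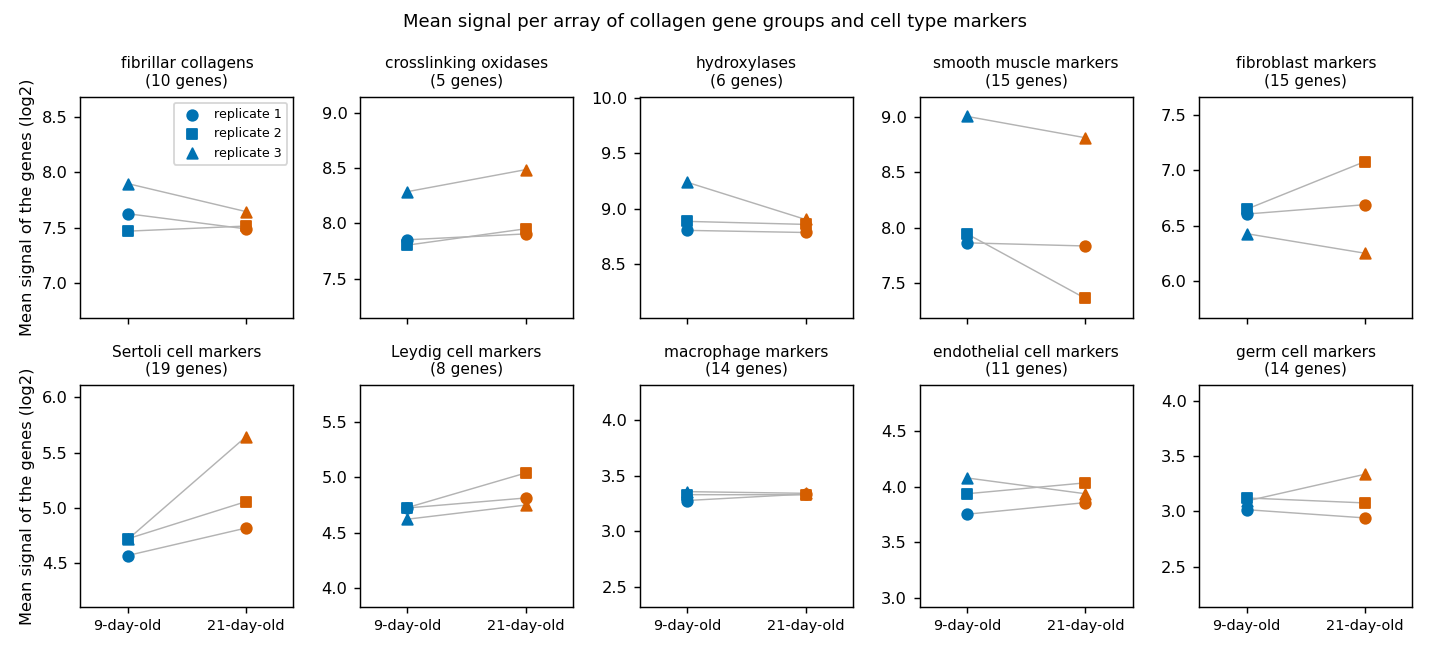
Mean signal per array (log2) of 3 groups of collagen genes and 7 lists of cell type markers at 9 days (blue) and 21 days (orange), with a marker shape for each replicate number, lines joining equal numbers and the same span of 2 log2 units in each panel. Smooth muscle markers are at 9.00 and 8.81 in replicate 3 and between 7.36 and 7.94 in the other arrays, and the oxidases are highest in replicate 3 too, at 8.29 and 8.49.

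Other marker lists were at lower signal. Macrophage markers had mean signals from 3.28 to 3.36, endothelial markers from 3.75 to 4.08, germ cell markers from 2.94 to 3.34 and Leydig cell markers from 4.62 to 5.04. Sertoli cell markers were at 4.57, 4.72 and 4.72 at 9 days and 4.82, 5.06 and 5.64 at 21 days, with 15 of 19 higher at 21 days and none called.

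Genes that act with collagens were counted in 6 lists, and none of their genes passed the test (0.0% of all genes). Of 19 genes of procollagen folding and export the mean at 21 days was above that at 9 days for 10 and below it for 9 (median difference 0.0067). The largest were -0.25 ± 0.20 (SE) for Creb3l1, a transcription factor of secretory cells that activates collagen genes, and 0.20 ± 0.15 for the prolyl 3-hydroxylase gene P3h2. Of 8 genes of propeptide cleavage 6 were higher, 1 lower and 1 equal (median 0.021). Bmp1, the C-proteinase of procollagen, differed by 0.25 ± 0.30 and its relative Tll1 by -0.25 ± 0.32.

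Proteoglycans and glycoproteins of the fibril had 10 members higher and 9 lower, with a median of 0.0039. Dpt, which encodes dermatopontin, was at 7.92 in 21-day-old replicate 2 and between 3.91 and 5.17 in the other arrays, and Fbln2 differed by -0.43 ± 0.47. Collagen receptors had 6 higher and 5 lower, with a median of 0.025. The adhesion receptor gene Adgrg1, whose product binds type III collagen, was at 4.41, 4.60 and 4.88 at 9 days and 4.90, 5.45 and 8.11 at 21 days. Its values did not overlap between the ages, as for 2.74% of all genes in this direction. The difference was 1.52 ± 0.83, and 0.67 without both arrays numbered 3. Itga11, the integrin chain for fibrillar collagen, was at 5.98, 6.43 and 8.99 at 9 days and 6.29, 5.35 and 8.39 at 21 days. Like Col12a1 it was highest in both arrays numbered 3.

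Partners of collagen in the basement membrane were mostly lower at 21 days, 9 of 11, with a median of -0.18 against -0.0093 over all genes. The largest differences were those of the laminin chain genes Lama1 and Lama5, at -0.48 ± 0.29 and -0.47 ± 0.42, with mean signals of 4.20 and 4.98. Of the other laminin chains in the list, Lamb2 and Lamc3 differed by -0.18 ± 0.21 and -0.13 ± 0.11. Lamc1, with a mean signal of 8.78, went the other way, by 0.17 ± 0.12. The type IV chains measured here did not show that direction, with 3 of 3 means higher, each by less than its SE. The differences were 0.039 ± 0.13 for Col4a1, 0.067 ± 0.14 for Col4a3 and 0.14 ± 0.21 for Col4a4. Those of Col4a1 and Col4a4 turned when 1 array was left out. The 11 partners had medians of -0.070, -0.13 and -0.26 in the pairs. Beside them stand the smooth muscle markers, of which 13 of 15 were lower at 21 days with a median of -0.19, and their part in this count was not tested. In the arrays numbered 3, 10 of 11 were above the other arrays at each age. Genes of collagen breakdown had 13 of 18 higher, with a median of 0.074. In this list the gelatinase gene Mmp9 was at 4.87, 6.68 and 5.05 at 9 days and 7.13, 8.10 and 7.82 at 21 days, and the membrane metalloproteinase gene Mmp16 differed by -1.04 ± 0.44. More than 1 list holds Dcn, Lum, Dpt, Fbln1 and Fap, which count both here and among fibroblast markers.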

How the data were processed

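Total RNA of cultured cells was hybridised to 6 Affymetrix arrays after whole-transcript labelling. Per the submitters' processing notes, the authors deposited log2 values from RMA, which corrects background, normalizes between arrays by quantiles and summarises probe sets. Its version is not given in the sources used here. Samples were grouped and numbered by their titles. Of 29214 probe sets, 15310 had 1 gene symbol in the platform annotation, and 323 had several and 13581 none, which were left out. Where a gene had more than 1 (527 genes), the probe set of highest mean stood for it. This gave 14506 genes.

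The ages were compared with limma 3.58.1 in R 4.3.3 (lmFit, eBayes), as 21 days minus 9 days, on all genes without a filter or covariate, with Benjamini-Hochberg adjustment and a threshold of 0.05. The fit was tested on simulated data with independent noise in each array and changes larger than that of any member. That test therefore does not cover differences of the members' size, or arrays of equal number that vary together. Confidence intervals are limma's. Deviations from the age means were alike in arrays of equal number, with correlations across genes of 0.439, 0.549 and 0.673. Each was above 0.1, so the numbers of the titles were taken as pairs. Over the members the correlations were 0.176, 0.654 and 0.684. SEs and confidence intervals are nonetheless from the fit without the block, unless the block is named. With the block the SE was 0.071 against 0.26 for Col1a2 and 0.12 against 0.11 for Col7a1. What a number stands for is not stated. Batches could not be tested, since no scan date, slide or detection call was used here.

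Members, lists and rules were chosen with earlier results of these data known. Values per array were given for the 6 largest positive and 6 largest negative differences among members and for members without overlap between the ages. They were also given for 13 collagen and processing genes of known role and for the 4 members that differed most in arrays numbered 3. The list of known roles held 17 genes, of which Col4a2, Col6a1, Col6a3 and Col18a1 were not analysed. In all 22 members were so named, and the other 16 are given by their differences or the range of these, some also with signals. From each of 6 lists of related genes, the 2 largest differences were named. Alternatives were the block, filters, scalings, probe sets, variance models, array weights and leaving out arrays. Plots came from matplotlib 3.10.9 (Python 3.11.15).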

Additional observations from a re-analysis of the deposited data

How the results depend on the processing

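In each of the 15 alternatives 0 of the members and 0 of all genes passed limma at an adjusted p under 0.05. The genes at an unadjusted p under 0.05 numbered 431, and 1122 with the replicate number as a block. The block changed no call. With 3 complete pairs it cannot alter a mean difference, so the median difference of the members stayed at -0.0093 by design. This median ran from -0.049, over the 31 members among the 7253 genes highest in mean signal, to 0.071, without 9-day-old replicate 3. It always stayed within the spread of 0.13 (SD) between the pairs. The medians of all genes fitted in these alternatives were -0.042 and -0.0048. The count of lower members, 21 of 38, was 10 without 9-day-old replicate 3 and 27 without 9-day-old replicate 2. Among all 14506 genes 7733 were lower, and 7461 and 7351 without these arrays in the same order. Centring the arrays on their medians gave a median of -0.035 and 23 lower members. Over all 14506 genes it gave a median of -0.035 too, with 9113 lower.

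The direction of 12 of the 22 members with values per array turned in at least 1 alternative. Without single arrays the difference ran from -0.23 to 0.097 for Col1a1, -0.39 to 0.031 for Col1a2, -0.068 to 0.17 for Col4a1, -0.089 to 0.28 for Col4a4, -0.47 to 0.12 for Col8a1 and -0.24 to 0.054 for Lox. It ran from -0.21 to 0.34 for Loxl2, -0.19 to 0.078 for P4ha1, -0.31 to 0.051 for P4ha2, -0.18 to 0.11 for Plod1, -0.22 to 0.014 for Plod2 and -0.016 to 0.18 for Sparc. Without both arrays numbered 3 it was 0.043 for Col8a1, 0.0093 for P4ha1, 0.039 for P4ha2, 0.020 for Plod1 and 0.015 for Plod2. The cause was not tested. Leaving out 1 array made 19 of the 22 differences over 1.5 times smaller or turned them, all but those of Col11a1, Col7a1 and Loxl3. With 3 arrays at each age and unknown limits of detection, a difference that was not called does not show equal expression.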
